A study of Homo sapiens with 32 samples.

Results

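Glucose uptake, glycolysis and glycogen metabolism were followed through 39 genes, taken by symbol from the deposited count tables among 19815 protein-coding genes. They encode the transporters and enzymes that carry glucose to lactate, the gate to mitochondrial pyruvate oxidation, and the enzymes that store and release glycogen. All 39 passed the filter on low counts in both cell lines. RNA-Seq was done on MCF10A, an immortalised and non-tumorigenic line of breast epithelium, and on MDA-MB-231, which comes from a metastatic triple-negative breast carcinoma. Cells of each line were kept in normoxia (N), in hypoxia of 0.5% O2 for 24 hours (H), in normoxia with 2.5 µM PP242 for 3 hours (NPP), or in hypoxia with the same PP242 treatment (HPP). PP242 blocks the kinase mTOR in both of its complexes, and cells without it received the vehicle DMSO. Total mRNA (T) and mRNA bound to polysomes (P) were sequenced for each condition, with 2 biological replicates in each of 8 groups per line and totals of 18340916 to 46032327 counts per library. MCF10A was grown with epidermal growth factor, hydrocortisone, cholera toxin and insulin, which the medium of MDA-MB-231 did not hold, so line and medium cannot be told apart.

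Glycolysis splits glucose into pyruvate and yields ATP without oxygen, and lactate dehydrogenase turns the pyruvate into lactate, which restores the NAD+ that the pathway consumes. When oxygen is scarce, the transcription factor HIF-1 binds hypoxia response elements, with the core ACGTG or GCGTG, and many genes of glucose uptake, glycolysis and glycogen storage are among its known targets. mTOR is a nutrient-sensing kinase that promotes translation and also glycolytic gene expression.

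The labels were checked before the members were compared, in read counts normalised to library size (CPM, scaled by TMM within a line). CA9, a carbonic anhydrase induced by HIF-1, stood at 7.72 to 26.9 CPM in the normoxic and 522 to 1356 in the hypoxic libraries of MCF10A, and at 0.0568 to 1.02 and 13.0 to 34.6 in MDA-MB-231. Each library thus fell on the side of its oxygen label. MCF10A libraries held the basal keratins KRT5 (1190.0 to 3268 CPM), KRT14 (458 to 4203) and KRT17 (48.5 to 1034), but the epithelial markers CDH1, EPCAM and TP63 reached at most 0.361, 0.461 and 0.226 CPM. The mesenchymal marker VIM stood at 1691 to 9370.0 CPM in MCF10A, with AXL at 225 to 401, SPARC at 91.7 to 203 and ZEB1 at 4.69 to 32.6, so the label of an epithelial line had the support of its keratins but not of CDH1, EPCAM or TP63. These markers do not settle the identity of the libraries labelled MCF10A, and the comparisons between lines are between libraries so labelled. MDA-MB-231 held VIM at 3113 to 6082, AXL at 699.8 to 1053 and ZEB1 at 43.6 to 88.2 CPM, with SPARC at most 0.796, EPCAM at 9.86 to 19.1, CDH1 and TP63 at most 0.568 and 0.568, and KRT5, KRT14 and KRT17 at most 0.284, 0.610 and 6.36. The hormone receptors ESR1 and PGR reached at most 0.393 and 0 CPM in MCF10A against 0.215 and 0.625 in MDA-MB-231. KRT14, KRT17 and VIM moved with treatment in total mRNA of MCF10A, with log2 fold changes of 2.37, 3.29 and 1.73 in HPP against N. They also moved in hypoxia alone, where KRT14 went from 752 and 458 CPM in N to 1669 and 2306 in H. KRT17 went from 95.7 and 48.5 to 237 and 466, and VIM from 1933 and 2277 to 2751 and 3772. The part of these markers in the members' changes was not tested.

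Replicates differed more in MCF10A than in MDA-MB-231. Among the 38 members other than the near-absent PDK4, 13 were at least 2-fold apart between the replicates of NPP in total mRNA of MCF10A, 6 in HPP, and 4 and 3 in polysomal N and H. In MDA-MB-231 at most 1 member was that far apart in any group. GAPDH, for example, stood at 4422 and 16363 CPM in the NPP replicates of MCF10A. GAPDH, LDHA, LDHB, PGK1, PGAM1, ENO1 and TPI1 have processed pseudogenes with near-identical sequence, among which the counting shares reads, so their levels carry that uncertainty.

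Before treatment, the enzymes of the lower pathway were by far the most abundant members. Per kilobase of merged exons, GAPDH, which oxidises glyceraldehyde 3-phosphate, was highest in normoxic total mRNA, at 2008 and 2438 CPM per kb in MCF10A against 1380.0 and 1510.0 in MDA-MB-231. The enolase ENO1 followed at 419 and 561 CPM per kb in MCF10A against 372 and 405 in MDA-MB-231, ahead of LDHA, TPI1, ALDOA, PGAM1, LDHB and PKM in both lines, although with the length of the longest transcript LDHA came before it in MDA-MB-231. At the other end stood PDK4, a kinase that switches off pyruvate dehydrogenase, with 0.0115 and 0.0186 CPM per kb in MCF10A against 0.292 and 0.163 in MDA-MB-231. From LDHA to PKM the mean levels lay between 239 and 339.7 CPM per kb in MCF10A and between 223 and 351 in MDA-MB-231, and their order changed with the transcript length used, so no order is read among them.

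In hypoxia the 39 genes took a larger share of all protein-coding counts in both lines. In total mRNA of MCF10A the share was 1.87% and 2.13% in the replicates of N and 4.26% and 5.44% in H, and in MDA-MB-231 it was 1.65% and 1.59% in N and 2.82% and 2.54% in H. In polysomal mRNA it was 3.12% and 2.64% against 6.12% and 7.08% in MCF10A, and 2.09% and 1.95% against 3.34% and 2.81% in MDA-MB-231. HPP gave 4.29% and 6.67% (T) and 4.69% and 5.34% (P) in MCF10A and 2.79% and 2.64% (T) and 3.13% and 2.92% (P) in MDA-MB-231. Hypoxic and normoxic libraries did not overlap within any fraction of either line when N was compared with H or HPP, whereas NPP overlapped N in total mRNA of both lines. In polysomes NPP overlapped N in MDA-MB-231, at 1.95% and 1.70%, and lay below it in MCF10A, at 2.58% and 2.32%. The drop in MCF10A was that of GAPDH, with 482552 and 382553 counts in N and 174097 and 158310 in NPP. All members together held 1107333 and 1201775 counts in N and 975910 and 893330 in NPP. Without GAPDH the share of the other members did not fall. These are shares of each library's counts, so absolute amounts were not measured. The libraries pool many cells, so a change in the cells holding an mRNA and one in its level per cell cannot be told apart.

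Hypoxia raised 10 of the 39 members in total mRNA of MCF10A and 16 in MDA-MB-231, and lowered none. The share of all tested genes called higher was 1.39% for MCF10A and 0.977% for MDA-MB-231, and the share called lower was 0.145% and 0.289%. Called means a Benjamini-Hochberg adjusted p under 0.05 over all genes tested in edgeR's quasi-likelihood test. No member fell in DESeq2 either, while at an unadjusted p under 0.05 the lower members numbered 0 for MCF10A and 3 for MDA-MB-231. The median change of the members was 1.00 on the log2 scale, against -0.03 over all genes tested, in MCF10A, and 0.56 on the log2 scale, against -0.02 over all genes tested, in MDA-MB-231. The 6 genes called in both lines, which are 60% of the calls in MCF10A and 37.5% of those in MDA-MB-231, were ALDOC, PFKFB4, PGK1, ENO2, LDHA and GBE1. MCF10A added SLC2A1, SLC2A3, GYS1 and UGP2, and MDA-MB-231 added HK1, GPI, PFKL, PFKFB3, ALDOA, TPI1, PGAM1, ENO1, PDK1 and PGM1. The count in MCF10A rested on few libraries, as it was 2 without either normoxic library and 6 or 3 without the first or second hypoxic one. With a replicate block within each fraction it was 16, where HK2, GPI, TPI1, PGAM1, PDK1 and PGM1 were added. When only the 4 libraries compared were fitted it was 19, and that of MDA-MB-231 8, so the counts do not order the lines.

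**Figure D1:**
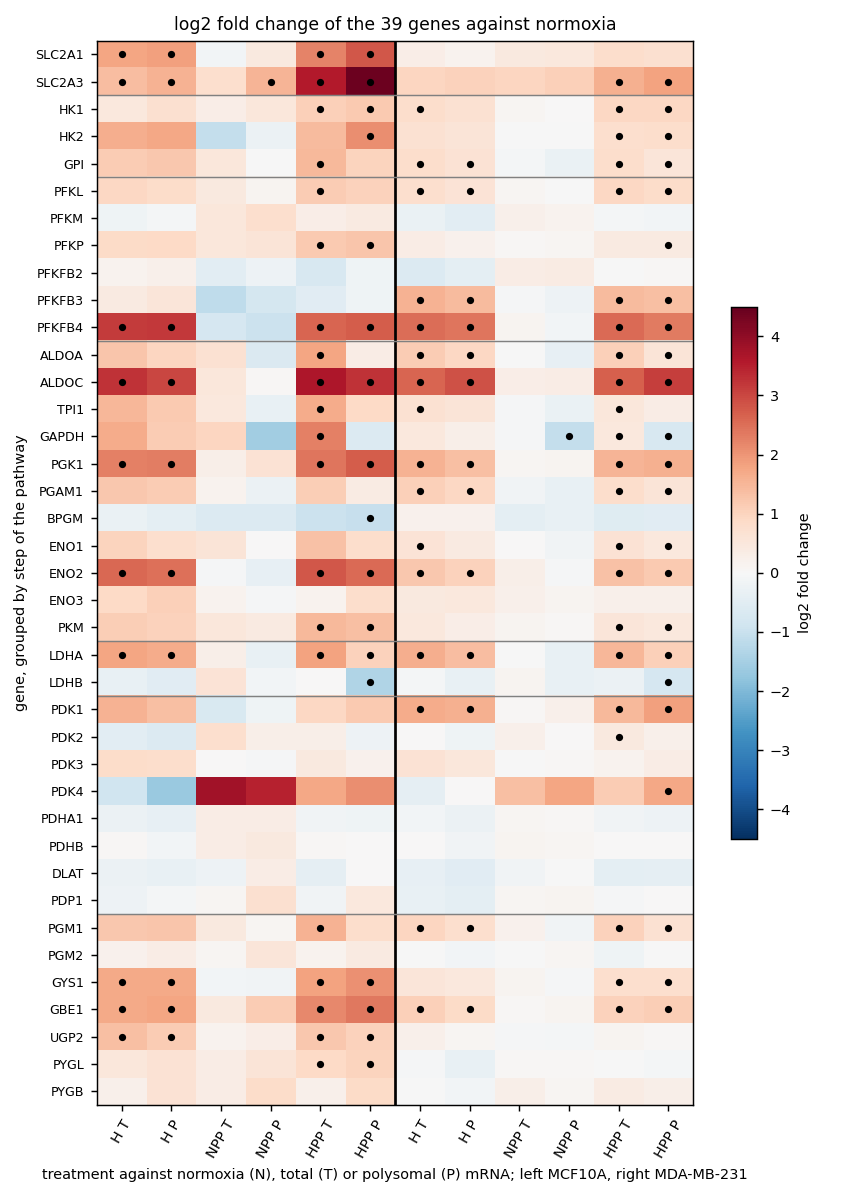
Each row is a gene, ordered by step of the pathway and separated by lines, and each column a treatment against normoxia in total (T) or polysomal (P) mRNA, MCF10A on the left and MDA-MB-231 on the right. Colour gives the log2 fold change and a dot marks an adjusted p under 0.05. The H and HPP columns are mostly red, and the NPP columns hold 2 dots, SLC2A3 in MCF10A and GAPDH in MDA-MB-231.

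ALDOC, the brain-type aldolase, and PFKFB4 had the largest rises in both lines, and their values were close enough that the order between them changed with the library left out. Total mRNA of MCF10A held 24.3 and 23.4 CPM in N and 173 and 281 in H, a 9.52-fold rise (log2 3.25 ± 0.48, adjusted p = 0.00524). MDA-MB-231 held 2.33 and 1.19 CPM in N and 12.5 and 9.66 in H, a 6.09-fold rise (log2 2.61 ± 0.43, adjusted p = 0.00704) from a far lower level. PFKFB4 makes fructose 2,6-bisphosphate, the strongest activator of phosphofructokinase. It stood at 7.34 and 9.76 CPM in N and 76.2 and 76.7 in H of MCF10A (log2 3.16 ± 0.31, adjusted p = 0.000438). In MDA-MB-231 it stood at 4.27 and 5.85 CPM in N and 31.3 and 26.1 in H (log2 2.52 ± 0.23, adjusted p = 3.39e-05). For both genes every hypoxic library lay above every normoxic one.

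PGK1 and ENO2 act in the second part of glycolysis, PGK1 at its first ATP-yielding step and ENO2, the neuronal enolase, just before pyruvate kinase. PGK1 rose from 541 and 491 to 2230.5 and 2693 CPM in MCF10A (log2 2.25 ± 0.29, adjusted p = 0.0019) and from 787.3 and 799.9 to 2212 and 2444 in MDA-MB-231 (log2 1.55 ± 0.17, adjusted p = 0.000134). ENO2 rose from 18.9 and 18.9 to 126 and 99.2 CPM in MCF10A (log2 2.58 ± 0.23, adjusted p = 0.000271) and from 40.5 and 36.2 to 82.4 and 95.4 in MDA-MB-231 (log2 1.21 ± 0.14, adjusted p = 0.000294). LDHA, the muscle-type subunit of lactate dehydrogenase, and GBE1, the glycogen branching enzyme, complete the list. LDHA rose from 2052 and 2042 to 5829.9 and 8122 CPM in MCF10A (log2 1.77 ± 0.34, adjusted p = 0.0261) and from 1868 and 1785 to 5284 and 6029.5 in MDA-MB-231 (log2 1.63 ± 0.19, adjusted p = 0.000302). GBE1 rose from 86.5 and 68.3 to 231 and 269 CPM in MCF10A (log2 1.69 ± 0.28, adjusted p = 0.0095) and from 100.8 and 107.2 to 217 and 217 in MDA-MB-231 (log2 1.06 ± 0.13, adjusted p = 0.000531). Hypoxic and normoxic libraries of these 4 genes did not overlap in either line. In MCF10A, ENO2 and PFKFB4 stayed called whichever single library was left out. Without either normoxic total library ALDOC, PGK1, LDHA and GBE1 were not called there, without the second hypoxic one ALDOC, LDHA and GBE1 were not, and LDHA was not without the first hypoxic library of either fraction. In MDA-MB-231 ALDOC lost its call without the second normoxic or first hypoxic total library, and the other 5 kept theirs.

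**Figure D2:**
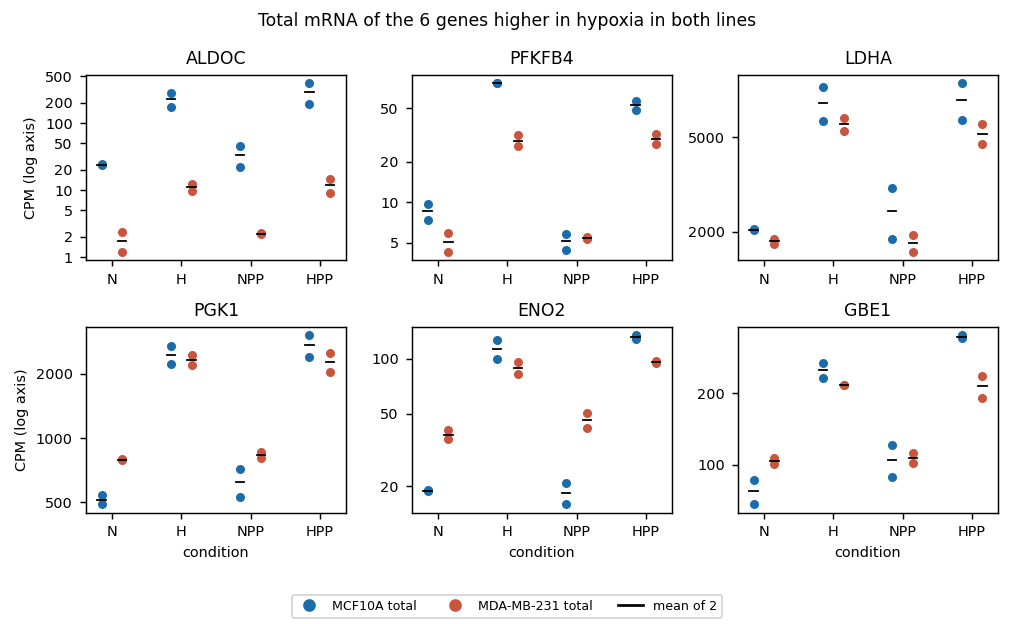
CPM on a log axis in total mRNA of N, H, NPP and HPP for the 6 genes called higher in hypoxia in both lines. Points are the 2 replicates of each group and bars their mean. For every gene the H and HPP points lie above the N points of the same line.

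The sequence just before the start of these 6 genes was searched for the core of the hypoxia response element, as was that of the other members. RefSeq promoters on GRCh38.p14 were found for 36 of the 39, and all 36 matched the genome. The letters ACGTG, read on both strands in the 250 bases before the start, were found in 15 of 36 members (41.7%), against 20.9% of the promoters of 14419 protein-coding genes of the files. With GCGTG also allowed, a core was found in 23 of 36 members (63.9%) and in 50.9% of all those promoters. ACGTG stood before 5 of the 6 genes called in both lines, all but PFKFB4, which held GCGTG. It stood before 8 of the 19 genes with a promoter that were called in either line (42.1%) and before 7 of 17 called in neither (41.2%), nearly the same share. A match is a string of letters and no evidence of binding. Capitals mark the cores below, and CACGTG reads ACGTG on both strands. ALDOC, PFKFB4 and LDHA are given over the full 250 bases before the start, and PGK1, ENO2 and GBE1 as shorter stretches around their ACGTG.
ALDOC, chr17:28576896-28577145, - strand: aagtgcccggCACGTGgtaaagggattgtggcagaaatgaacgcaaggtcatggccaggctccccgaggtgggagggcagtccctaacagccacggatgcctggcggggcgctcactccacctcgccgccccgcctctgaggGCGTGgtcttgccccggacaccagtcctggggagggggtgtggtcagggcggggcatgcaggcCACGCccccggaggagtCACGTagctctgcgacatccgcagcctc
PFKFB4, chr3:48556804-48557053, - strand: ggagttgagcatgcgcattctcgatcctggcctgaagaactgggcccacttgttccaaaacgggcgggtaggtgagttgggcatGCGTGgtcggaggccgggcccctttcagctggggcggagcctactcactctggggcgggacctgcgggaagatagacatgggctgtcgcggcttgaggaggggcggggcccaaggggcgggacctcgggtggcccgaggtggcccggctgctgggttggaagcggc
PGK1, chrX:78104016-78104099, + strand: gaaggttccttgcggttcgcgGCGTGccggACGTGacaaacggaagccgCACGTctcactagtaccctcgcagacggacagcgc
ENO2, chr12:6914432-6914496, + strand: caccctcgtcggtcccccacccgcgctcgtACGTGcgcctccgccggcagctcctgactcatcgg
LDHA, chr11:18394313-18394562, + strand: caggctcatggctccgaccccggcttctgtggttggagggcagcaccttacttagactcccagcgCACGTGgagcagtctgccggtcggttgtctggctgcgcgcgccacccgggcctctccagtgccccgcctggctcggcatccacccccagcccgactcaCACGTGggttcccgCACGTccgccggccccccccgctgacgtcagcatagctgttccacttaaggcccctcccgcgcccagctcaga
GBE1, chr3:81761723-81761787, - strand: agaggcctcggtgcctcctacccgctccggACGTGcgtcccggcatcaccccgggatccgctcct

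ALDOC held 1 CACGTG, 1 other ACGTG and 2 GCGTG, and LDHA held 2 CACGTG and 1 other ACGTG. PGK1 held 2 ACGTG and 1 GCGTG, ENO2 and GBE1 1 ACGTG each, and PFKFB4 1 GCGTG. GBE1 also held 1 GCGTG outside the stretch shown. ALDOC and PFKFB4, the 2 genes with the largest rises, thus shared GCGTG, but PFKFB4 lacked ACGTG in this window.

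Uptake and the first steps came next in the order of the pathway. SLC2A1 (GLUT1) and SLC2A3 (GLUT3) bring glucose through the plasma membrane. SLC2A1 rose in MCF10A from 56.8 and 61.6 to 186 and 217 CPM (log2 1.77 ± 0.29, adjusted p = 0.00962), a call lost without either normoxic or the second hypoxic total library. In MDA-MB-231 it stood at 632 and 359 CPM in N and 693 and 535 in H, overlapping groups (log2 0.31 ± 0.31, adjusted p = 0.762). SLC2A3 rose in MCF10A from 3.24 and 3.10 to 8.93 and 7.52 CPM (log2 1.38 ± 0.27, adjusted p = 0.0262), and gave 0.96 with an adjusted p of 0.124 in MDA-MB-231. Hexokinases trap glucose as glucose 6-phosphate, and GPI turns that into fructose 6-phosphate. Without a block HK1 and GPI were called in MDA-MB-231 only (log2 0.79 and 0.81, against 0.47 and 1.14 in MCF10A). With a replicate block within fraction GPI was also called in MCF10A (adjusted p = 0.0457). HK2, the inducible hexokinase, stood at 13.4 and 13.0 CPM in N and 54.0 and 28.1 in H of MCF10A, and at 79.7 and 83.9 CPM in N and 153 and 111.6 in H of MDA-MB-231, without passing the test in either line (adjusted p = 0.18 and 0.0751). With a replicate block within fraction HK2 was called in MCF10A (log2 1.51, adjusted p = 0.0392).

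Of the phosphofructokinases, which commit sugar to glycolysis, the liver form PFKL was called in MDA-MB-231 (log2 0.74 ± 0.15, adjusted p = 0.0279), with a value of 0.92 and an adjusted p of 0.306 in MCF10A. The platelet form PFKP gave 0.87 and 0.34 and the muscle form PFKM -0.19 and -0.30 in MCF10A and MDA-MB-231, none of them called. PFKFB3, the paralog of PFKFB4 with the highest ratio of kinase to phosphatase activity, rose in MDA-MB-231 from 28.1 and 31.7 to 96.8 and 77.9 CPM (log2 1.55 ± 0.18, adjusted p = 0.000294). In MCF10A PFKFB3 stood at 30.5 and 41.2 CPM in N and 49.5 and 46.4 in H, with an adjusted p of 0.918. PFKFB2, the heart form, was not called in either line (0.15 and -0.60). Per kilobase, PFKFB4 made up 16.7% and 17.4% of the mRNA of the 3 PFKFB genes in the normoxic replicates of MCF10A and 56.9% and 60.4% in the hypoxic ones, and 9.78% and 13.2% in N and 23.2% and 24.0% in H of MDA-MB-231. PFKFB3 kept the larger part in hypoxic MDA-MB-231, at 71.5% and 71.7%, and made up 69.3% and 73.6% in N and 36.9% and 36.4% in H of MCF10A. These shares use merged exons and depend on the length used.

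Of the 11 members acting from fructose bisphosphate to pyruvate, 7 were called higher in MDA-MB-231 (background 0.977%) and 3 in MCF10A (background 1.39%). As above, such counts do not order the lines. In MDA-MB-231 the 7 were ALDOC, PGK1 and ENO2 with ALDOA (log2 1.13), the main aldolase, TPI1 (0.67), which interconverts the trioses, PGAM1 (1.09), the phosphoglycerate mutase, and ENO1 (0.61). The same 4 genes gave larger values in MCF10A, at 1.24, 1.51, 1.195 and 1.00, but did not pass the test there (adjusted p = 0.371, 0.17, 0.156 and 0.472). With a replicate block within fraction TPI1 (adjusted p = 0.019) and PGAM1 (adjusted p = 0.0203) were called in MCF10A. GAPDH stood at 4811 and 5841 CPM in N and 12966 and 21152 in H of MCF10A and at 3307 and 3618 CPM in N and 4649.9 and 4952 in H of MDA-MB-231. The groups did not overlap in either line, and the adjusted p was 0.306 for MCF10A and 0.156 for MDA-MB-231. PKM, the last kinase of glycolysis, gave 1.09 and 0.47 (adjusted p = 0.297 and 0.151). BPGM, which makes 2,3-bisphosphoglycerate (-0.30 and 0.20), and the muscle enolase ENO3 (0.91 and 0.43) were not called.

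At the end of the pathway only the LDHA subunit rose. LDHB, the heart-type subunit, stood at 793 and 782.7 CPM in N and 539 and 725 in H of MCF10A, and at 831 and 889 CPM in N and 682 and 948 in H of MDA-MB-231, with no call. LDHA made up 56.1% and 56.4% of the 2 lactate dehydrogenase mRNAs per kilobase in N and 84.3% and 84.7% in H of MCF10A, and 52.7% and 49.8% in N and 79.3% and 75.9% in H of MDA-MB-231. These shares depend on the length used. Merged exons cover 6026 bases for LDHA and 2983 for LDHB, and the canonical transcripts 2241 and 1303. The pyruvate dehydrogenase complex admits pyruvate to the citrate cycle, and its kinases shut it. PDK1 rose in MDA-MB-231 from 10.4 and 8.24 to 27.2 and 32.4 CPM (log2 1.67 ± 0.22, adjusted p = 0.000869). In MCF10A PDK1 went from 18.6 and 19.8 to 60.3 and 53.6 CPM, a similar value of 1.57 with an adjusted p of 0.113. A replicate block within fraction called PDK1 there (adjusted p = 0.0362). The other 7 genes of this step were not called in either line. The kinases gave -0.46 and 0.01 (PDK2) and 0.83 and 0.65 (PDK3) in MCF10A and MDA-MB-231, and PDK4 reached at most 1.33 CPM in N and H of total mRNA. Of the complex itself, PDHA1 gave -0.26 and -0.12, PDHB 0.04 and 0.00, and DLAT -0.25 and -0.38, and the phosphatase PDP1, which reopens it, -0.22 and -0.33.

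Of the 7 glycogen genes, 3 were called higher for MCF10A (background 1.39%) and 2 for MDA-MB-231 (background 0.977%), with GBE1 in both. GYS1, glycogen synthase, rose in MCF10A from 47.2 and 48.3 to 163 and 149.7 CPM (log2 1.71 ± 0.27, adjusted p = 0.00775), and gave 0.56 (adjusted p = 0.253) in MDA-MB-231. UGP2, which makes UDP-glucose, the sugar donor of glycogen, rose in MCF10A from 156 and 129 to 382 and 352 CPM (log2 1.36 ± 0.26, adjusted p = 0.022), a call lost without any 1 of these 4 libraries. In MDA-MB-231 UGP2 stood at 133 and 145 CPM in N and 142 and 179.6 in H (log2 0.21 ± 0.15, adjusted p = 0.629), with overlapping groups. PGM1, the phosphoglucomutase between glucose 6-phosphate and glucose 1-phosphate, rose in MDA-MB-231 from 111.5 and 103.4 to 212 and 205 CPM (log2 0.96 ± 0.13, adjusted p = 0.000937), and gave 1.23 (adjusted p = 0.171) in MCF10A. A replicate block within fraction called PGM1 in MCF10A (adjusted p = 0.0291). The related PGM2 and the phosphorylases PYGL and PYGB, which release glucose from glycogen, were not called. They gave 0.19, 0.52 and 0.24 in MCF10A, against -0.01, -0.06 and -0.02 in MDA-MB-231.

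**Figure D3:**
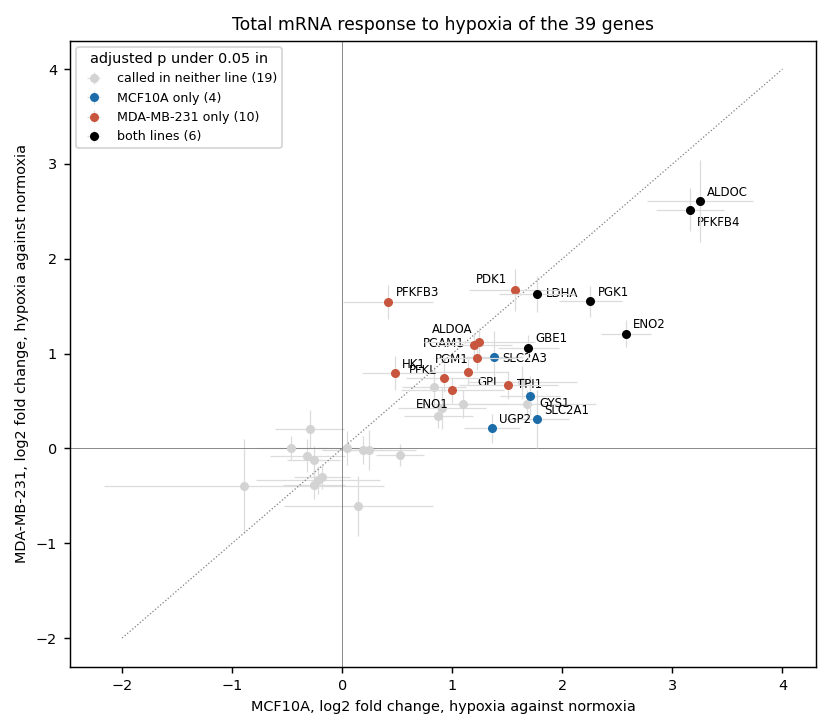
Log2 fold change of hypoxia against normoxia in total mRNA, MCF10A on the x axis and MDA-MB-231 on the y axis, for the 39 genes, with standard errors as lines and the dotted line of equal change. Colour gives the line in which a gene was called. Most genes right of 0 lie below the dotted line, with PFKFB3 far above it.

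Hypoxia also raised members in polysome-bound mRNA. In MCF10A the same number, 10 members, were higher (background 1.33%) and 0 lower (background 0.16%), and in MDA-MB-231 13 were higher (1.78%) and 0 lower (0.511%). At an unadjusted p under 0.05 in edgeR, 0 and 4 members were lower, and DESeq2 called 0 and 3, with 18 higher in MDA-MB-231. The 6 genes shared by the lines were those of total mRNA. ALDOC, for example, stood in polysomes at 52.7 and 32.9 CPM in N and 318 and 374 in H of MCF10A, and at 2.57 and 1.07 CPM in N and 16.5 and 9.45 in H of MDA-MB-231 (log2 3.02 and 2.87). Median changes were 0.96 for MCF10A and 0.46 for MDA-MB-231, against -0.07 and 0.01 over all genes. The count in MCF10A was 3 without either normoxic polysomal library and 4 without the second hypoxic one, and 0 when only the 4 libraries compared were fitted.

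With PP242 added to hypoxia, more members were called higher than in hypoxia alone, each against normoxia. In total mRNA of MCF10A the order turned over when only the libraries compared were fitted. The share of all genes called higher in total mRNA rose as well. It went from 1.39% to 7.43% in MCF10A and from 0.977% to 6.31% in MDA-MB-231. The added calls are thus not read as particular to the members. HPP raised 20 members in total mRNA of MCF10A (background 7.43%) and 22 in MDA-MB-231 (6.31%), with none lower (7.47% and 6.91%). At an unadjusted p under 0.05 in edgeR, 1 member was lower for MCF10A and 2 for MDA-MB-231, and DESeq2 called 0 and 1. The lines shared 16 of these genes, 80% of the calls in MCF10A and 72.7% of those in MDA-MB-231. They were SLC2A3, HK1, GPI, PFKL, PFKFB4, ALDOA, ALDOC, TPI1, GAPDH, PGK1, ENO2, PKM, LDHA, PGM1, GYS1 and GBE1. Median changes were 1.19 and 0.66, against -0.01 and -0.05 over all genes. H and HPP share the normoxic libraries, so their common calls are not independent. The count in MCF10A was 9 and 8 without the first and second normoxic library and 10 without the second HPP one, and 11, below the 19 of hypoxia alone, when only the libraries compared were fitted. With a replicate block within fraction it was 23 higher, with HK2, PGAM1 and ENO1 added, and 1 lower, BPGM (log2 -0.97, adjusted p = 0.0192).

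In polysomes HPP raised 15 members in MCF10A (background 10.2%) and 21 in MDA-MB-231 (9.71%), and lowered 2 in each (11.9% and 9.73%). The share of members lowered was thus below that of all genes in both lines. LDHB fell in both lines, from 1361 and 1091 to 491 and 476 CPM in MCF10A (log2 -1.34 ± 0.35, adjusted p = 0.0178) and from 1279.8 and 1067 to 678 and 707 in MDA-MB-231 (log2 -0.76 ± 0.17, adjusted p = 0.00837). In total mRNA LDHB gave 0.03 and -0.25, with no call. BPGM fell in polysomes of MCF10A, from 17.5 and 9.06 to 6.30 and 6.65 CPM (log2 -1.03 ± 0.32, adjusted p = 0.037), a value that went to -0.41 without the first normoxic polysomal library and lost its call under 12 of the 16 omissions of 1 library, without the filter and with only the libraries compared. GAPDH fell in polysomes of MDA-MB-231, from 5289 and 4758 to 3227 and 2939.5 CPM (log2 -0.70 ± 0.15, adjusted p = 0.0047), a call lost without the second HPP polysomal library. PDK4, barely expressed, rose there from 1.31 and 0.613 to 2.75 and 3.53 CPM (log2 1.74 ± 0.44, adjusted p = 0.0142). Without the first normoxic or second HPP polysomal library the MCF10A count of 17 was 9, and without the first HPP polysomal library the MDA-MB-231 count of 23 was 15. The call of LDHB was lost without the first normoxic or either HPP polysomal library in MCF10A and with only the libraries compared there, and without the first normoxic or first HPP one in MDA-MB-231.

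PP242 in normoxia moved fewer members past the test than hypoxia did. In total mRNA edgeR called 0 in either direction in both lines (background 0.343% higher and 0.305% lower in MCF10A, 0.377% and 0.178% in MDA-MB-231). At an unadjusted p under 0.05 there were 6 members for MCF10A and 2 for MDA-MB-231, and DESeq2 called 1 in each line, PDK4 and SLC2A3. In total mRNA of MCF10A PDK4 held 2 and 4 counts in N and 60 and 9 in NPP. It passed the filter on low counts in MCF10A through its PP242 libraries alone, so its calls there are not read as a response to PP242. The NPP replicates of total mRNA of MCF10A were the pair that stood furthest apart. In polysomes of MCF10A, SLC2A3 rose from 2.30 and 2.61 to 6.95 and 7.41 CPM (log2 1.55 ± 0.27, adjusted p = 0.0246), beside a background of 0.472%. The call was lost without either normoxic total library and without any of the 4 polysomal libraries of N and NPP, and when only those 4 were fitted. In polysomes of MDA-MB-231, GAPDH fell from 5289 and 4758 to 2561 and 2262 CPM (log2 -1.06 ± 0.15, adjusted p = 0.00121), beside a background of 1.19%, and 3 members were called without either NPP total library. DESeq2 called 4 members in polysomes of each line, with PFKFB4, PDK4 and GBE1 added in MCF10A, and SLC2A3, PGAM1 and PDK4 in MDA-MB-231. In these MCF10A polysomes PDK4 held 4 and 3 counts in N and 46 and 39 in NPP, so the limit above holds for this call too. Without the first NPP total library of MCF10A, 1 member was called in total and 2 in polysomal mRNA.

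PP242 within hypoxia (HPP against H) raised SLC2A3 in MCF10A, from 8.93 and 7.52 to 43.1 and 32.5 CPM in total mRNA (log2 2.20 ± 0.27, adjusted p = 0.00183, background 1.33%) and from 6.27 and 8.37 to 46.9 and 56.6 in polysomes (log2 2.82 ± 0.28, adjusted p = 0.00045, background 2.63%). It was the only member called there in either fraction, and in polysomes the count was 3 and 2 without the first and second NPP total library. DESeq2 called 4 members in polysomes, with SLC2A1 and PDK4 higher and GAPDH lower, and a replicate block within fraction called 6, with PGAM1 and LDHB also lower. PDK4 held 0 and 2 counts in H and 7 and 27 in HPP of these polysomes. Because it passed the filter in MCF10A through its PP242 libraries alone, its call is not read as a response. The call of SLC2A3 in total mRNA was lost when only the libraries compared were fitted. In total mRNA of MDA-MB-231 edgeR called 0 members (background 1.7% higher and 2.08% lower), 6 had an unadjusted p under 0.05, and DESeq2 called 3. The count was 2 without the first H total library and 1 without either normoxic one. In its polysomes PDK2 (log2 0.43 ± 0.13, adjusted p = 0.0419) and PDK4 (1.72, adjusted p = 0.0209) were higher (background 4.86%), and GAPDH (-0.97, adjusted p = 0.000945) and BPGM (-0.69, adjusted p = 0.0387) lower (background 6.62%). Those 4 calls became 1 without either H or either HPP polysomal library, 9 in DESeq2 and 8 with a replicate block within fraction.

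Translation efficiency (Te) is the log2 fold change in polysomal mRNA minus that in total mRNA. It shows how far an mRNA moved on or off polysomes relative to most other mRNAs, beyond its own level. Each library was scaled by TMM, so a shift shared by most mRNAs was not measured. In hypoxia alone no member was called for Te by edgeR's test of the interaction of fraction and treatment in either line, with 0 members at an unadjusted p under 0.05 and 0 in DESeq2. The share of all genes called was 0% in either direction for MCF10A and 0.0074% in each for MDA-MB-231, so the absence of calls says nothing about the members. With PP242 in hypoxia the Te of GAPDH was lower in MDA-MB-231. In MDA-MB-231 GAPDH stood in N at 3307 and 3618 CPM in total and 5289 and 4758 in polysomal mRNA, and in HPP at 4811 and 4753 in total and 3227 and 2939.5 in polysomal mRNA. On this scale the polysomal level exceeded the total one in every N replicate and fell below it in every HPP replicate. The Te change was -1.17 ± 0.21, adjusted p = 0.00968 (background of lower calls 0.696%), and in NPP it was -0.99 ± 0.21, adjusted p = 0.0574 (background 0.34%). In NPP 1 member was called there by DESeq2, without the filter, with RLE scaling, with all gene classes, with either replicate block, with the length offset, with only the libraries compared and under 5 of the 16 omissions of 1 library. The HPP call was lost without the first normoxic total library or the second HPP polysomal one. In MCF10A the Te of GAPDH was -2.89 ± 0.88, adjusted p = 0.653 in HPP and -2.52 ± 0.87, adjusted p = 0.99 in NPP, larger values with far larger errors. Within replicate numbers it was -2.70 and -2.57 in HPP and -1.78 and -2.49 in NPP, all below 0. In MDA-MB-231 the same values were -1.25 and -1.09 in HPP and -1.08 and -0.90 in NPP. The titles give the total and polysomal library of each condition and replicate the same number, and the fit above treats them as separate samples. With a block for each such pair, chosen after seeing the data, the HPP value was -1.17 ± 0.23, adjusted p = 0.0659 in MDA-MB-231, where the call was lost, and -2.63 ± 0.95, adjusted p = 0.945 in MCF10A, and no member was called for Te in either line. Total GAPDH of MCF10A stood at 14453 and 37043 CPM in the HPP replicates. In MCF10A edgeR called 0 members for Te in HPP and NPP, as it did 0% of all genes in either direction, with 3 and 1 at an unadjusted p under 0.05, and DESeq2 called 1 in each.

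By a further rule, Te counted as changed where its z-score over all genes exceeded 1.5 in size and the polysomal change had an adjusted p under 0.10 (MCF10A) or 0.05 (MDA-MB-231). The study's methods text and its supplementary table assign these thresholds to the lines in opposite ways. Those of the table were used for the backgrounds given here, and the members named were as many under either. The z-score carries no replicate error. The rule named LDHB lower in HPP of MCF10A (Te -1.37, z -1.71, background 2.6%). In MDA-MB-231 it named GAPDH lower in HPP (z -1.84, background 0.94%) and in NPP (z -1.62, background 0.688%). The z-score of GAPDH in MCF10A was -3.64 in HPP, but its polysomal change had an adjusted p of 0.504. Likewise past 1.5 in size in MCF10A but not called were GAPDH in NPP (z -3.11) and ALDOA in HPP (Te -1.41, z -1.76, beyond LDHB) and in NPP (z -1.62), with adjusted p of 0.292, 0.66 and 0.662 for the polysomal change. Each of the 3 calls named by the rule was lost when 1 of several libraries was left out. For LDHB these were either normoxic or either HPP polysomal library or the second HPP total one. For GAPDH in HPP they were the first normoxic library of either fraction and the second HPP polysomal one. For GAPDH in NPP they were any of the 4 normoxic libraries, the first NPP total or the second NPP polysomal one. In HPP of MDA-MB-231 Te was -0.48 for ALDOA, 0.08 for PGK1 and -0.43 for LDHA, none of them called.

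**Figure D4:**
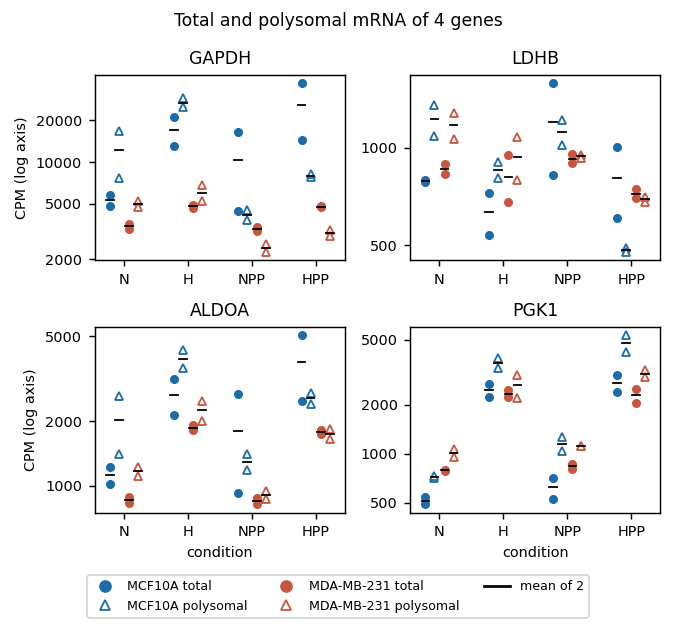
CPM on a log axis of GAPDH, LDHB, ALDOA and PGK1 in total (filled circles) and polysomal (open triangles) mRNA of the 4 conditions, MCF10A in blue and MDA-MB-231 in red, with bars at the mean of 2 replicates. In MDA-MB-231 the GAPDH triangles lie above the circles in N and below them in NPP and HPP, whereas those of PGK1 lie above the circles in HPP.

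Whether the lines responded differently was tested in a joint fit of all 32 libraries, as MDA-MB-231 minus MCF10A. In hypoxia ENO2 was the one member called in this fit, with -1.31 ± 0.25, adjusted p = 0.0229 in total mRNA (background of lower differences 0.196%) and -1.53 ± 0.25, adjusted p = 0.00679 in polysomes (0.273%). In normoxia ENO2 was higher in MDA-MB-231, and in hypoxia it reached 126 and 99.2 CPM in MCF10A against 82.4 and 95.4 in MDA-MB-231, each scaled within its line. Members called in only one line, such as GYS1 and HK1, were not called for a difference in hypoxia in this fit, so their responses were not shown to differ. With a replicate block within fraction, which fits the pairing of total mRNA of MCF10A, UGP2 also differed in total mRNA (-1.11 ± 0.22, adjusted p = 0.0208), and SLC2A1, UGP2 and PYGL in polysomes. The call of ENO2 in total mRNA was lost without either N or either H library of MCF10A, the first N or either H library of MDA-MB-231, and the call in polysomes without the second H polysomal library of MDA-MB-231. In polysomes the count was 3 without either NPP total library of MCF10A, and 2 without either HPP total or the first H polysomal one. In HPP total mRNA 4 members differed, 3 with a lower log2 fold change in MDA-MB-231 (background 1.27%) and 1 with a higher one (2.04%). With the same block there were 9, where SLC2A1, TPI1, GAPDH, GBE1 and PYGL were added on the lower side. The CPM that follow, here and in the next paragraph, are scaled within each line and do not compare levels between lines. SLC2A3 reached 43.1 and 32.5 CPM from 3.24 and 3.10 in MCF10A, and 61.7 and 41.0 from 19.4 and 14.6 in MDA-MB-231 (difference -1.88 ± 0.41, adjusted p = 0.0124). UGP2 stood at 354 and 303 CPM in MCF10A against 165 and 138 in MDA-MB-231 (difference -0.98 ± 0.26, adjusted p = 0.0443), a call lost under 18 of 32 omissions of 1 library and when the lines were fitted apart. ENO2 gave -1.39 ± 0.25, adjusted p = 0.00343.

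PFKFB3 went the other way. In HPP it stood at 26.7 and 23.8 CPM in MCF10A, below the 30.5 and 41.2 of N, and at 80.0 and 81.1 in MDA-MB-231, above the 28.1 and 31.7 of N (difference 2.03 ± 0.48, adjusted p = 0.0212). The call was lost without either HPP library of either line, either N library of MDA-MB-231 or the second N library of MCF10A. PP242 in normoxia gave 17.8 and 15.0 CPM in MCF10A against 27.5 and 29.6 in MDA-MB-231, and neither the value in MCF10A (log2 -1.13 ± 0.42, adjusted p = 0.379) nor that in MDA-MB-231 (-0.06) passed the test. In HPP polysomes 7 members had a lower log2 fold change in MDA-MB-231 (background 1.44%). They were SLC2A3 (-2.62 ± 0.42, adjusted p = 0.00113), SLC2A1 (-2.07 ± 0.49, adjusted p = 0.0192), ENO2, and the 4 glycogen genes GYS1 (-1.32 ± 0.35, adjusted p = 0.04), GBE1 (-1.28 ± 0.32, adjusted p = 0.0261), UGP2 (-1.01 ± 0.26, adjusted p = 0.0352) and PYGL (-1.13 ± 0.25, adjusted p = 0.0124). SLC2A1, the ubiquitous transporter, reached 339 and 481 CPM in HPP polysomes of MCF10A from 50.8 and 68.7, and 913 and 906 in MDA-MB-231 from 643 and 448. PYGL, the liver-type phosphorylase, reached 202 and 209.6 CPM from 101.5 and 102.8 in MCF10A, and stood at 162 and 166 CPM in N and 151 and 157 in HPP of MDA-MB-231. Of the 4 differences in total mRNA, 1 was left without the second N library of MCF10A, the first N or the second HPP library of MDA-MB-231, and 2 without the second HPP library of MCF10A, the second N or the first HPP library of MDA-MB-231. Of the 7 in polysomes, 2 were left without either HPP library of MDA-MB-231, 3 without the second HPP library of MCF10A or the first N library of MDA-MB-231, and 4 without the second N library of MDA-MB-231.

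**Figure D5:**
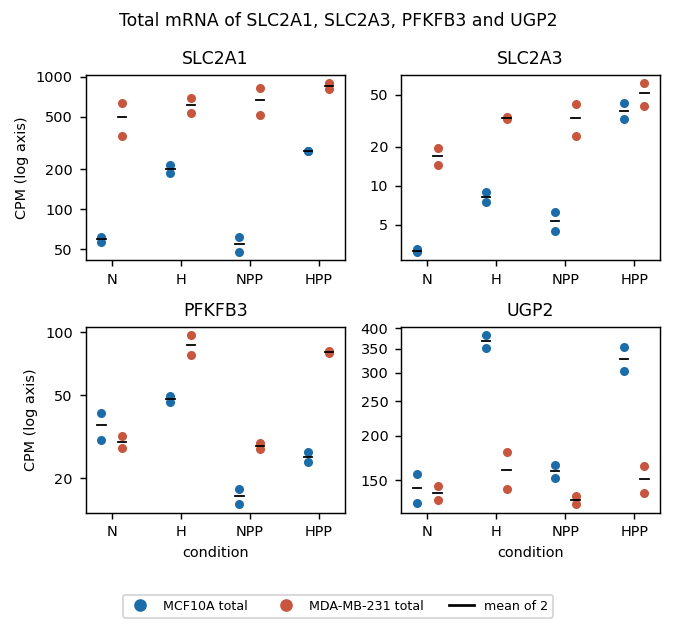
CPM on a log axis of SLC2A1, SLC2A3, PFKFB3 and UGP2 in total mRNA of the 4 conditions, MCF10A in blue and MDA-MB-231 in red, points for replicates and bars for their mean, each line scaled on its own. SLC2A3 climbs from about 3 CPM in N to over 30 in HPP of MCF10A, PFKFB3 parts between the lines in H and HPP, and UGP2 is higher in H and HPP than in N of MCF10A.

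The lines differed in the members' normoxic levels before any treatment. In total mRNA 8 members were higher in MDA-MB-231 (background 20.3%) and 9 lower (20.5%), shares near the background. On the common scale of the joint fit, SLC2A3 stood at 3.80 and 3.66 CPM in MCF10A against 16.8 and 12.2 in MDA-MB-231 (log2 1.96 ± 0.30, adjusted p = 2.01e-05). HK2 stood at 15.8 and 15.3 CPM in MCF10A against 69.2 and 70.2 in MDA-MB-231 (log2 2.16 ± 0.38, adjusted p = 9.53e-05), and SLC2A1 was higher by log2 2.605 ± 0.36, adjusted p = 5.26e-06. All 3 thus began higher in MDA-MB-231, and ENO2, ENO3, PDK4, DLAT and PGM2 were also higher there. ALDOC was lower, at 28.5 and 27.6 CPM in MCF10A against 2.02 and 0.999 in MDA-MB-231 (log2 -4.18 ± 0.55, adjusted p = 2.47e-06). PYGB, the brain-type phosphorylase, stood at 351 and 443 CPM in MCF10A against 111.3 and 104.1 in MDA-MB-231 (log2 -1.88 ± 0.39, adjusted p = 0.00047), and GYS1 at 55.4 and 57.1 CPM in MCF10A against 20.6 and 23.5 in MDA-MB-231 (log2 -1.35 ± 0.25, adjusted p = 0.000208). HK1, PFKL, PFKFB4, PDK1, PDHA1 and UGP2 completed the genes lower in MDA-MB-231. The count of 17 was 10 without the first normoxic total library of MDA-MB-231 and 11 without the second of MCF10A.

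Other genes of the same metabolism, in lists also chosen with earlier results known, were called in hypoxia in 2 lists only, lactate transport and other glycogen genes. In total mRNA none of 16 citrate cycle genes, 8 pentose phosphate genes and 7 genes of pyruvate entry was called by edgeR in H of either line, with 2, 0 and 0 at an unadjusted p under 0.05 in MCF10A, against 0, 1 and 1 in MDA-MB-231. Of 4 lactate transport genes, SLC16A3, the exporter MCT4, rose in MDA-MB-231 (log2 0.89 ± 0.16, adjusted p = 0.0129), and it gave 0.90 in MCF10A. Of the 27 other glucose transporters and glycolytic isoforms, 14 were tested for MCF10A and 13 for MDA-MB-231, and none was called, with 1 and 2 at an unadjusted p under 0.05. The other glycogen genes held 2 calls of 18 tested in MCF10A and 3 of 19 in MDA-MB-231, all higher, against the 1.39% and 0.977% of all genes called higher. STBD1, which tethers glycogen to membranes, was called in MDA-MB-231 only, from 4.20 and 4.38 to 6.95 and 8.79 CPM (log2 0.87 ± 0.19, adjusted p = 0.0437), and gave 1.09 (adjusted p = 0.112) in MCF10A. PPP1R3C and PPP1R3G, which bring protein phosphatase 1 to glycogen, were called higher in both lines. PPP1R3C went from 0.183 and 0.274 to 3.16 and 6.27 CPM in MCF10A (log2 4.34 ± 0.77, adjusted p = 0.0161) and from 1.26 and 1.14 to 2.55 and 2.92 in MDA-MB-231 (log2 1.18 ± 0.27, adjusted p = 0.0469). PPP1R3G went from 0.235 and 0.337 to 3.19 and 3.61 CPM in MCF10A (log2 3.55 ± 0.45, adjusted p = 0.0019) and from 0.0717 and 0.114 to 1.44 and 0.592 in MDA-MB-231 (log2 3.51 ± 0.62, adjusted p = 0.00989). For both genes hypoxic and normoxic libraries did not overlap. In N, PPP1R3C of MCF10A and PPP1R3G of both lines stood at 0.337 CPM or less. They may have passed the filter through their hypoxic libraries alone. These calls, and the counts of other glycogen genes that include them, are therefore not read as support for a rise.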

How the data were processed

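The 39 genes and the other lists were chosen with earlier results of these data known. Libraries were made by the authors from poly(A) RNA with a kit that does not keep strand, mapped with STAR and counted with RSEM. The study's methods state GRCh38, whereas the submitters' processing notes name GRCh37, so counts were used by symbol only. The expected counts deposited per gene are whole numbers without normalisation, and rounding changed 0 values. The analysis covered protein-coding genes, with R 4.3.3 and edgeR 4.0.16. The 16 libraries of a line were fitted in 8 groups (8 residual degrees of freedom) after filterByExpr and TMM, which kept 13124 genes for MCF10A and 13510 for MDA-MB-231, and all 32 libraries jointly (14298 genes). Each contrast was put to the quasi-likelihood F test, with Benjamini-Hochberg adjustment over all genes tested. Errors after ± are standard errors of log2 fold changes, with 2 replicates per group. The p-values measure the spread between these libraries. With 2 libraries against 2 the smallest permutation p is 0.333, so none is given. CPM carry no prior count, and levels per kilobase use merged exons of the reference annotation. Sequences come from RefSeq. Values by library were printed for the 6 genes with the largest change shared by the lines, genes that differed between lines in total mRNA, and genes called for Te, and for others where a role needed them. Replicate numbers paired the samples in total mRNA of MCF10A only, where all 6 correlations of replicate differences between groups exceeded 0.1 (0.283 to 0.778). Alternatives were DESeq2 1.42.0, RLE scaling, no filter, all gene classes, only the libraries compared, replicate blocks, other thresholds, thinning and leaving out each library. An offset for transcript length, the canonical transcript length and a block for each total and polysomal pair were chosen after seeing the data. The test was also run on simulated counts with known changes.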

Additional observations from a re-analysis of the deposited data

Results flagged for a closer look

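The response of some members differed between the lines by the interaction of line and treatment in the joint fit, given as the log2 fold change in MDA-MB-231 minus that in MCF10A. In H, ENO2 differed by -1.31 in total and -1.53 in polysomal mRNA. In HPP total mRNA the difference was -1.88 for SLC2A3, 2.03 for PFKFB3, -1.39 for ENO2 and -0.98 for UGP2. In HPP polysomes it was -2.07 for SLC2A1, -2.62 for SLC2A3, -1.39 for ENO2, -1.32 for GYS1, -1.28 for GBE1, -1.01 for UGP2 and -1.13 for PYGL. Of these genes SLC2A1, SLC2A3, ENO2, GYS1 and UGP2 also differed between the lines in normoxic level, and the medium differed with the line.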

How the results depend on the processing

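Of 885 values of single members under an alternative, 794 kept direction and call, 91 kept direction without the call and 0 reversed. Most of these values came from leaving out 1 library, often one outside the comparison, where little could change. The tally therefore does not show how firm a call is. Counts of called members stayed within 1.5 times in 210 of 268 cases other than omissions of 1 library, and moved further in 79 of 608 omissions. Many of the 608 omissions likewise left out a library outside the comparison. Counts under an alternative are given without the share of all genes called there, so they are not read against a background. The cause of the moved counts was not tested. In MCF10A the count moved with DESeq2 to 1 (NPP T), 4 (NPP P), 4 (HPP against H, P), 1 (Te in HPP) and 1 (Te in NPP). With the replicate block it was 2 (HPP against H, P), and within fraction 16 (H T), 3 (NPP P) and 6 (HPP against H, P). With the length offset it was 1 (NPP T), 2 (NPP P) and 3 (HPP against H, P), at an adjusted p under 0.10 2 (NPP P) and 3 (HPP against H, P), and with only the libraries compared 19 (H T), 0 (H P), 11 (HPP T), 10 (HPP P) and 0 (HPP against H, T). In MDA-MB-231 DESeq2 gave 21 (H P), 1 (NPP T), 4 (NPP P), 3 and 9 (HPP against H, T and P) and 1 (Te in NPP). No filter gave 2 (NPP T), 3 (NPP P), 3 (HPP against H, T) and 1 (Te in NPP). The replicate block gave 1 (NPP T), 3 (NPP P), 4 and 7 (HPP against H, T and P) and 1 (Te in NPP), and within fraction 1 (NPP T), 2 (NPP P), 2 and 8 (HPP against H, T and P) and 1 (Te in NPP). The length offset gave 1 (HPP against H, T) and 1 (Te in NPP), RLE scaling and all gene classes 1 (Te in NPP), an adjusted p under 0.10 3 (NPP P), 3 and 8 (HPP against H, T and P) and 1 (Te in NPP). An absolute log2 change of at least 1 gave 10 and 7 (H T and P), 11 and 10 (HPP T and P) and 1 (HPP against H, P), and only the libraries compared 8 (H T) and 1 (Te in NPP). For the line differences the replicate block within fraction gave 2 (H T), 4 (H P) and 9 (HPP T). The replicate block moved no other count by over 1.5 times. A block for each total and polysomal pair gave 0 for Te in HPP of MDA-MB-231. Differences between replicates correlated between the fractions of a condition at -0.25 to 0.214 (MCF10A) and 0.00239 to 0.348 (MDA-MB-231). Leaving out 1 library gave, in T and P of MCF10A, 2 to 11 and 3 to 12 (H), 8 to 24 and 9 to 20 (HPP), 0 to 1 and 0 to 2 (NPP), 1 to 1 and 1 to 3 (HPP against H), and by z-score in HPP 0 to 1. In MDA-MB-231 it gave 11 to 17 and 9 to 15 (H), 15 to 23 and 15 to 23 (HPP), 1 to 3 (NPP P), 0 to 2 and 1 to 5 (HPP against H), 0 to 1 and 0 to 1 (Te in HPP and NPP), and by z-score 0 to 1 and 0 to 1. The line differences ran 0 to 1 and 0 to 3 (H, T and P), 1 to 6 and 2 to 8 (HPP), and 10 to 25 (normoxia). A group left with 1 library was assumed to vary like the others. Each group held 2 replicates, and how far their number limits precision was not tested. Thinning every library to the depth of the shallowest of the 32 moved no count by over 1.5 times.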

Other observations

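The genes named here come from the neighbouring lists and were chosen after their values were seen. TIGAR, a fructose bisphosphatase that opposes PFKFB activity, fell in HPP of both lines, from 28.3 and 26.1 to 2.16 and 5.98 CPM in total mRNA of MCF10A (log2 -2.74 ± 0.44, adjusted p = 0.00194) and from 16.9 and 20.4 to 11.4 and 9.93 in MDA-MB-231 (log2 -0.80 ± 0.16, adjusted p = 0.00582). Of the 8 pentose phosphate genes, edgeR called 2 lower in HPP polysomes of MCF10A, RPIA and TKT, and 4 in MDA-MB-231, RPIA, TKT, PGLS and TALDO1. Of all genes tested, 11.9% and 9.73% were called lower there. Polysomal TKT, the transketolase, went from 692 and 438 to 121 and 119 CPM in MCF10A (log2 -2.24 ± 0.56, adjusted p = 0.0152) and from 389 and 399.8 to 191 and 187 in MDA-MB-231 (log2 -1.06 ± 0.14, adjusted p = 0.00012). GYG1, the primer of glycogen synthesis, had negative log2 fold changes in HPP polysomes of both lines (-2.09 and -0.52). The glycogen genes PPP1R3B (3.24 and 1.203) and STBD1 (1.92 and 1.55) had positive ones. They were picked from the longer list of other glycogen genes. Of all genes tested, 10.2% and 9.71% were called higher in these polysomes.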
